A study of Mus musculus with 24 samples.

Results

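The amino acid carriers of 7 solute carrier families (Slc1, Slc3, Slc6, Slc7, Slc36, Slc38 and Slc43) were followed in messenger RNA of mouse brain endothelial cells with and without endothelial deletion of Sox17. Genes were taken by name, as protein-coding genes of these families with a mean of at least 10 reads in at least 1 of the 8 groups of libraries. That gave 49 members of 62 protein-coding genes with a matching name, among 17159 genes tested and 45468 genes in the tables. The members were 12 of 16 Slc7 genes, 14 of 19 Slc6 genes, 10 of 11 Slc38 genes, 6 of 7 Slc1 genes, 3 of 3 Slc43 genes, 2 of 2 Slc3 genes and 2 of 4 Slc36 genes. The 13 genes left out had lower counts in every group. Slc7a6os matched by name but encodes no carrier, so 48 members were carriers.

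Brain fractions depleted of CD45-positive cells and selected for CD31 on magnetic beads were sequenced from embryos (stage E15.5), from pups on day 5 (P5) or day 9 (P9) after birth, and from adults. In the Sox17iECKO group, called KO, animals had floxed Sox17 alleles and the tamoxifen-inducible recombinase Cdh5(PAC)-Cre-ERT2, which is driven by an endothelial promoter. The wt group carried the same Sox17flox/flox alleles without the recombinase, so the presence of Cre and the loss of Sox17 cannot be told apart. At E15.5 both genotypes came from dams that were injected with 1 mg of tamoxifen 2 times, at 11.5 and again at 13.5 days of gestation. Pups of both genotypes taken at P5 or P9 received 100 µg once at postnatal day 1. Adults of both genotypes received 4 injections of 1.5 mg from 6 weeks of age and were harvested 1 week later. There were 24 libraries, 3 separate biological replicates for every genotype and stage. Tissue was dissociated with a neural tissue kit at E15.5 and P5 and with an adult brain kit at P9 and in adults. Stage and kit thus cannot be told apart in comparisons across that step. The tamoxifen dose and day were the same for P5 and P9, but the time from injection to harvest was longer at P9. That time cannot be told apart from stage. The tamoxifen schedule differed in every other comparison of stages, where it cannot be told apart from stage.

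Depth ranged from 12301779 to 19830600 counts per library, with 20147 to 22600 genes detected, and a count of 0 allows a level of up to 0.151 to 0.244 counts scaled to library size (CPM), for counting error only. Members took 0.685% to 1.579% of the counts of a library. Sox17 was at 8.34 to 10.6 CPM in KO and 78.3 to 108 CPM in wt at E15.5, at 15.1 to 19.1 CPM in KO and 227 to 306 CPM in wt at P5, at 18.9 to 27.2 CPM in KO and 311 to 354 CPM in wt at P9, and at 22.5 to 78.2 CPM in KO and 274 to 318 CPM in wt in adults. All 12 endothelial markers were detected, and so were markers of other brain cells, which are given beside the results they move with.

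Brain endothelial cells hand amino acids from blood to brain and back through carriers on both of their surfaces. Large neutral amino acids such as leucine and phenylalanine cross on heteromeric carriers, in which a light chain of the Slc7 family (Slc7a5, or LAT1, and others) transports and the heavy chain Slc3a2 (CD98, or 4F2hc) brings it to the membrane. Cationic amino acids such as arginine use Slc7a1 (CAT1), glutamine and other small neutral amino acids use sodium-coupled Slc38 carriers, glutamate uses Slc1 carriers, and taurine uses Slc6a6.

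The most abundant carriers were those of the blood-brain barrier. Over the 12 wt libraries the authors' TPM, a level scaled to gene length, averaged 1850 TPM for Slc7a5, 1200 TPM for Slc3a2, 927 TPM for Slc38a2, 918 TPM for Slc38a5, 706 TPM for Slc6a6, 672 TPM for Slc1a4, 471 TPM for Slc7a1, 460 TPM for Slc38a3 and 186 TPM for Slc7a8. Slc7a5 (chr8:121881150-121907694 on mm10, minus strand) had the highest mean TPM of all members in wt at E15.5, P5 and P9, although its libraries overlapped with those of Slc38a2 at E15.5. In adult wt libraries Slc6a6, at 1020 ± 79.5 TPM (SD, n = 3), stood above Slc7a5, at 888 ± 30.3 TPM, followed by Slc3a2 and Slc38a3, with no overlap between neighbours in that order. Further down the adult order, neighbours overlapped. At P9 the KO order differed from the wt order below Slc3a2. In KO libraries Slc38a3 came next, at 744 ± 17.9 TPM, against 583 ± 30.6 TPM in wt libraries. Slc38a5 (chrX:8271133-8280179, plus strand) had 617 ± 108 TPM in KO and overlapped there with Slc1a4 and Slc38a2, while it came right after Slc3a2 in wt, at 1280 ± 59.2 TPM.

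**Figure D1:**
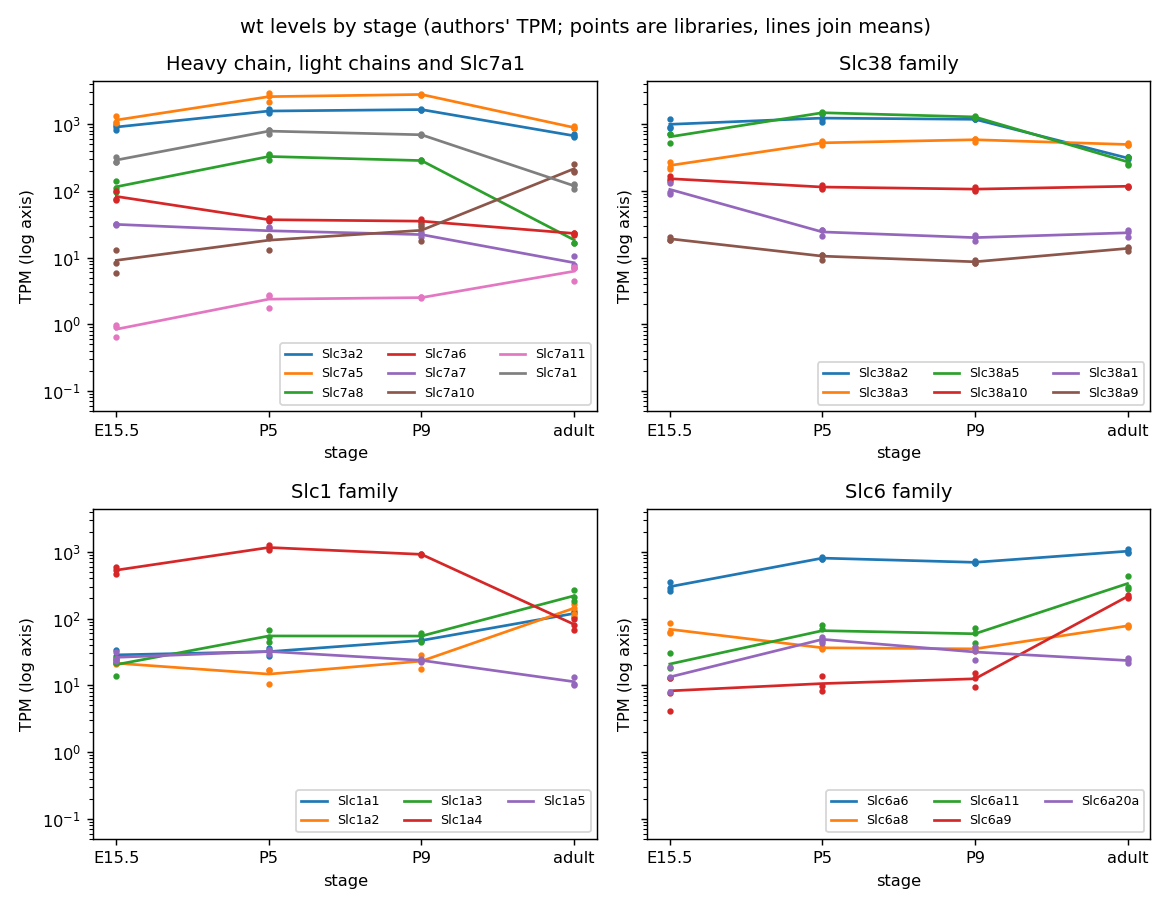
wt levels (authors' TPM, log axis) by stage from E15.5 to adult, in 4 panels for heavy chain, light chains and Slc7a1, for the Slc38 family, for the Slc1 family and for the Slc6 family. Points are the 3 libraries of a stage and lines join their means; Slc7a8 and Slc1a4 drop from P9 to adult, while Slc7a10, Slc6a9 and Slc1a2 climb.

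Carriers differed between KO and wt at P9. Of the 49 members 24 passed the edgeR quasi-likelihood test with Benjamini-Hochberg adjustment (adjusted p under 0.05, here called), 12 higher and 12 lower in KO. That is 49% of members, where 28% of all genes tested were called, 13.5% higher and 14.6% lower. The median size of the difference was 0.56 (log2) over the members and 0.34 over all genes, and the median signed difference was 0.16 over the members and 0.02 over all genes. In 8 members every KO library was above every wt library, in 14 every KO library was below, and in 27 the libraries overlapped. The same count was not made over all genes, so it only describes the members. When libraries were scaled to endothelial marker genes instead, all genes shifted by a median of -0.22, and the calls became 6 higher and 15 lower with no called direction turned. Under that scaling 5480 of all 17159 genes were called. In these bulk fractions, fewer cells of a type and less RNA per cell cannot be told apart.

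The light chains of the heteromeric carriers moved in opposite directions, with 1 higher and 3 lower of 6. Slc7a5, the leucine and phenylalanine carrier LAT1, had 5320, 5940 and 4200 CPM in the P9 KO libraries, against 3190, 3210 and 3190 CPM in the wt libraries. All 3 KO libraries were above all wt libraries, and the log2 fold change was 0.69 ± 0.16 (SE, adjusted p = 0.00227). Slc7a8 (LAT2; chr14:54722216-54781886, minus strand), a light chain with a broader neutral substrate range, had 144, 158 and 113 CPM in KO, against 367, 361 and 339 CPM in wt. The groups were far apart, with a log2 fold change of -1.36 ± 0.18 (adjusted p = 2.79e-06). Slc7a7 (y+LAT1), which exchanges cationic for neutral amino acids, had 9.34, 11.4 and 7.37 CPM in KO, against 23.3, 20.7 and 23.8 CPM in wt. Every KO library was below every wt library here too (log2 fold change -1.27 ± 0.18, adjusted p = 9.86e-06). Slc7a6 (y+LAT2), its close relative, had 30, 26.2 and 36.2 CPM in KO, against 41.1, 43.5 and 37.3 CPM in wt. KO was lower without overlap (-0.40 ± 0.14, adjusted p = 0.0374), but the call was lost without wt 1, wt 2, KO 1 or KO 2, with adjusted p of 0.081 to 0.14.

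The shared heavy chain did not follow its most abundant light chain past the test. Slc3a2 (chr19:8706882-8723369, minus strand) had 1990, 1850 and 1520 CPM in KO, against 1600, 1480 and 1480 CPM in wt. KO 3 lay within the wt range, and the log2 fold change of 0.23 ± 0.11 was not called (adjusted p = 0.107), although it was with DESeq2 size factors (0.042), with the DESeq2 test (0.017) and without KO 3 (0.028). The TPM of Slc7a5 per TPM of Slc3a2 was 2.14, 2.56 and 2.20 in KO and 1.59, 1.73 and 1.72 in wt, so every KO library was above every wt library. With 3 libraries against 3, an exact two-sided permutation test cannot go below p = 0.1, and no model was fitted to this ratio, which is given as a description. At the other stages the ratio overlapped between the genotypes, with means of 1.33 in KO and 1.28 in wt at E15.5, 1.59 in KO and 1.64 in wt at P5, and 1.34 in KO and 1.33 in wt in adults. Slc3a1, the heavy chain of the renal cystine carrier, had only 20, 7 and 25 reads in KO and 11, 11 and 8 reads in wt, and was not called.

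The make-up of the light chains shifted with these changes. Slc7a5 held 96.1 ± 0.632% of summed light chain TPM in P9 KO libraries and 88.3 ± 0.248% in wt libraries (SD, n = 3 each). Slc7a8 held 2.39%, 2.36% and 2.35% in KO, against 9.32%, 9.11% and 8.64% in wt. The 2 genotypes were apart for both shares. Slc7a8 also held less in KO libraries earlier, 6.16 ± 0.339% against 8.24 ± 0.773% in wt at E15.5 and 7.81 ± 1.29% against 11 ± 0.377% in wt at P5, and in adults it held 1.79 ± 0.612% in KO and 1.59 ± 0.327% in wt, where the libraries overlapped. The light chains Slc7a10 (Asc-1, for D-serine and small neutral amino acids) and Slc7a11 (xCT, the cystine-glutamate exchanger) were not called at P9. Slc7a10 had 24.5, 11.6 and 34.1 CPM in KO, against 13.8, 21.8 and 23.1 CPM in wt, and Slc7a11 had 14.5, 8.57 and 8.06 CPM in KO, against 11.4, 11 and 10.3 CPM in wt.

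**Figure D2:**
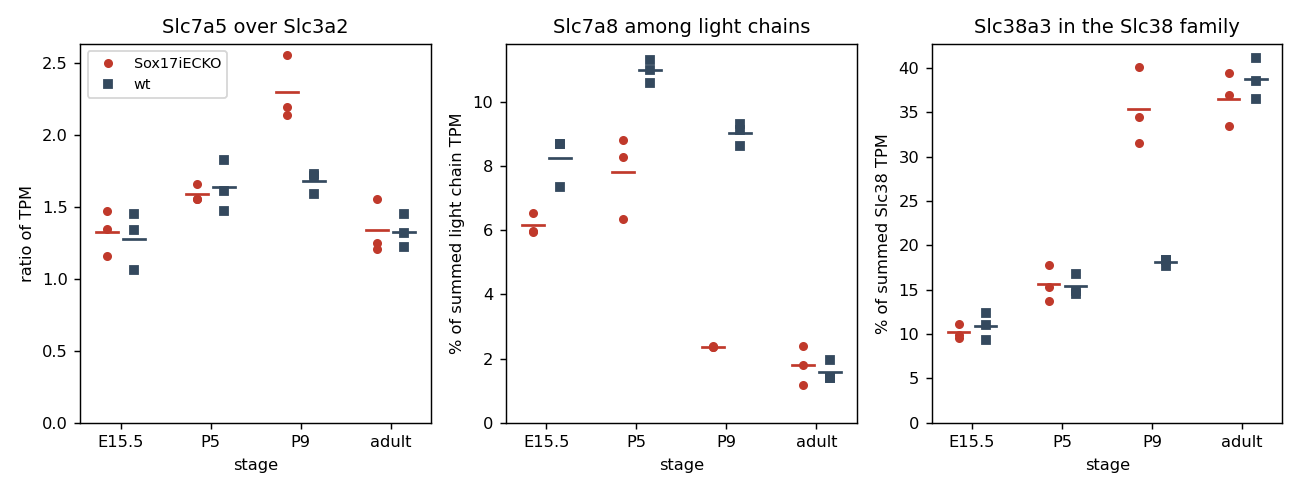
Shares by stage and genotype, with each point 1 library: the ratio of Slc7a5 TPM to Slc3a2 TPM, the percentage of summed light chain TPM from Slc7a8, and the percentage of summed Slc38 TPM from Slc38a3. At P9 the KO points lie above the wt points in the outer panels and below them in the middle panel, for example at 2.14 to 2.56 in KO and 1.59 to 1.73 in wt for the ratio.

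Some light chain genes, Slc7a11 and Slc7a5 among them, are known targets of the amino acid response, in which the factor ATF4 binds a composite element with the letters TGATGNAA. Promoter windows of 250 bases before the start were searched for it on both strands, from RefSeq on GRCm38.p6, where 36 members had a window. It was present in 3.45% of 32851 windows and in 3.91% of all genes with a window. Among members it was in 2 of 36 (5.56%), only in windows of Slc7a7 and Slc7a11. These are shown because both are light chains, of which Slc7a7 was called lower at P9 and Slc7a11 was not called. The element is in capitals, and lies 141 bases before the start in Slc7a7 (chr14:54417945-54418194, minus strand) and 66 and 47 bases before it, on opposite strands, in Slc7a11 (chr3:50443614-50443863, minus strand).
Slc7a7: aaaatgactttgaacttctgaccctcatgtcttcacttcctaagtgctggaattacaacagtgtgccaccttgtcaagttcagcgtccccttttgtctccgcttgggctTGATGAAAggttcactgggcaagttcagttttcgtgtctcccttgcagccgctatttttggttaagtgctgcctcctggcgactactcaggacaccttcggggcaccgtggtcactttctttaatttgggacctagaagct
Slc7a11: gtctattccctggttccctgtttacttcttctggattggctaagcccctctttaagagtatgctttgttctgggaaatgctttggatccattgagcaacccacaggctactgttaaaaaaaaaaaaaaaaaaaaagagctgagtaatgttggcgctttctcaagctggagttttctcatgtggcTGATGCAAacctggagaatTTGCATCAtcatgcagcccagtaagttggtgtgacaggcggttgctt
Another start of Slc7a7 carries the element 243 bases before it (chr14:54417923-54417952, minus strand), with these neighbours.
Slc7a7 other start: tagaagcTGATGCAAcagcttccccgaggg
A match is a run of letters in a window and was not tied to any binding in these data.

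The arginine carrier of the barrier was lower. Slc7a1 (CAT1) had 1420, 1080 and 1580 CPM in P9 KO libraries, against 2480, 2450 and 2520 CPM in wt libraries. The groups were apart, with a log2 fold change of -0.87 ± 0.14 (adjusted p = 5.69e-05). Slc7a1 held 96.2 ± 0.424% of summed cationic carrier TPM in KO and 98.3 ± 0.207% in wt, so it remained by far the main cationic carrier. Of the other 4 cationic genes, Slc7a14, a lysosomal member, was called higher at a low level, with 2.86, 0.972 and 5.3 CPM in KO, against 1.57, 1.64 and 1 CPM in wt. KO 2 was below all wt libraries, and the call (log2 fold change 1.11 ± 0.42, adjusted p = 0.0494) was lost without any wt library, without KO 1 or without KO 3, with adjusted p of 0.074 to 0.58. Slc7a2 (CAT2), Slc7a3 (CAT3) and Slc7a4, which has no established transport, were not called, with log2 fold changes of -0.23, 0.48 and 0.65.

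Among 10 sodium-coupled neutral carriers 2 were higher and 2 lower, and the 2 that fell were the most abundant of the family in wt. Slc38a5 (SNAT5), a glutamine, histidine and serine carrier, had 478, 388 and 476 CPM in KO, against 861, 907 and 906 CPM in wt (log2 fold change -1.0 ± 0.14, adjusted p = 7.61e-06). Slc38a2 (SNAT2), a carrier that cells raise when amino acids are short, had 998, 710 and 1040 CPM in KO, against 1720, 1710 and 1650 CPM in wt (-0.89 ± 0.14, adjusted p = 4.83e-05). In both genes every KO library was below every wt library. Slc38a3 (SNAT3), a glutamine carrier, had 1320, 1330 and 1190 CPM in KO, against 914, 982 and 971 CPM in wt. KO was above wt without overlap (0.42 ± 0.13, adjusted p = 0.0190), but the call was lost without KO 1, KO 2 or wt 1 (0.055 to 0.073) and under the endothelial scaling (0.23). Slc38a9, the lysosomal arginine sensor of mTORC1, had 32.6, 36.9 and 38.3 CPM in KO, against 23.5, 25.8 and 22.4 CPM in wt, also apart (0.59 ± 0.10, adjusted p = 8.9e-05). As a share of summed Slc38 TPM, Slc38a3 stood at 34.5%, 40.1% and 31.5% in KO and at 17.7%, 18.4% and 18.4% in wt. The adult shares averaged 36.5% in KO and 38.7% in wt. The other 6 genes of the family were not called, and Slc38a10 came nearest, with 176, 193 and 183 CPM in KO below 206, 205 and 222 CPM in wt (-0.20 ± 0.09, adjusted p = 0.121).

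Windows with the TCF/LEF element of Wnt signalling, CTTTGAT on either strand, are shown because the series asked about Sox17 and Wnt. It was present in 3.21% of windows and in 3.72% of all genes with a window. Among members it was in 4 of 36 (11.1%), in windows of Slc1a2, Slc7a1, Slc38a9 and Slc38a10. The difference between these shares was not tested. The Sox element CCATTGT was in 3.02% of windows and in no member window, which says only that these letters were not there. The Slc1a2 and Slc7a1 windows lie before other starts, inside the gene spans (chr2:102658659-102790784 and chr5:148327410-148399904). All 250 bases of the Slc7a1 window were exonic. The matches of Slc1a2, Slc38a9 and Slc38a10 are given with neighbours and the element in capitals. They are at chr2:102706220-102706249 (plus strand, 207 bases before the other start), chr13:112660616-112660645 (plus strand, 139 bases before the start) and chr11:120151352-120151381 (minus strand, 10 bases before it).
Slc1a2: agaagagggacATCAAAGgccccaaatggt
Slc38a9: agggcggggttCTTTGATaggctggccggc
Slc38a10: gcgtcccgcctcatcccgccCTTTGATacc
Slc1a2 and Slc38a9 were called higher in KO at P9, Slc7a1 was called lower and Slc38a10 was not called.

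Of the 4 glutamate carriers 3 were higher in KO. Slc1a1 (EAAT3; chr19:28835049-28913960, plus strand), which takes up glutamate, aspartate and cysteine, had 292, 325 and 261 CPM in KO, against 88.3, 92.7 and 88.5 CPM in wt. The KO libraries were 3.26-fold higher on the fitted scale, a log2 fold change of 1.70 ± 0.14 (adjusted p = 2.55e-09), the smallest p of any member. Slc1a2 (GLT-1; chr2:102658659-102790784, plus strand), the main glutamate carrier of astrocytes, had 314, 225 and 311 CPM in KO, against 72.2, 116 and 92.6 CPM in wt (1.60 ± 0.17, adjusted p = 2.52e-07). Slc1a3 (GLAST), another astrocyte glutamate carrier, had 298, 210 and 230 CPM in KO, against 121, 153 and 160 CPM in wt (0.77 ± 0.19, adjusted p = 0.00329). All KO libraries exceeded all wt libraries in these 3 genes, and only the Slc1a3 call was lost under the endothelial scaling (0.066). Slc1a6 (EAAT4), a Purkinje cell carrier, had 0.757, 0.243 and 2.48 CPM in KO, against 1.9, 1.42 and 1.36 CPM in wt, with KO 3 highest of all. It was not called (adjusted p = 0.581), but without KO 3 it was called lower (-1.72, adjusted p = 0.0081).

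Astrocyte marker genes were called higher in KO at P9 in 6 of 10 cases. Gjb6 was higher by 2.28 ± 0.26, Aldoc by 1.54 ± 0.26 and Fgfr3 by 1.20 ± 0.21, while Aqp4 (-0.20 ± 0.21) and S100b (0.03 ± 0.21) were not called (log2). Summed, the 10 markers stood at 1420, 1110 and 1410 CPM in KO and at 1150, 1120 and 1140 CPM in wt, with KO 2 below the wt range, and none was at 0. Slc1a2, Slc1a3, Slc6a9 and Slc6a11 are known in astrocytes too, and among the KO libraries all of them were lowest in the same library, KO 2. They were not alone in this. Slc38a5, Slc38a2, Slc7a1 and Slc6a6 were also lowest in KO 2, as were the summed neuron markers (304, 231 and 510 CPM in KO). Slc7a5 and Slc1a1 were highest there. The part of astrocyte RNA in these results was not tested.

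The 2 small neutral exchangers of the Slc1 family were both lower. Slc1a4 (ASCT1), for serine, alanine and cysteine, had 999, 852 and 566 CPM in KO, against 1170, 1090 and 1100 CPM in wt. KO was below wt in every library (log2 fold change -0.47 ± 0.17, adjusted p = 0.0384), and the call was lost without any wt library or KO 3 (0.069 to 0.21). Slc1a5 (ASCT2), which also takes glutamine, had 15.48, 23.5 and 17.3 CPM in KO, against 32.2, 28.8 and 30.6 CPM in wt. Again the groups were apart (-0.70 ± 0.16, adjusted p = 0.00174).

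In the Slc6 family, the most abundant member fell and carriers of glycine and creatine rose. Slc6a6 (TauT), the taurine carrier, had 657, 550 and 862 CPM in KO, against 1320, 1320 and 1360 CPM in wt, with wide separation (log2 fold change -0.95 ± 0.16, adjusted p = 0.000114). Slc6a8, the creatine carrier, had 66, 64.6 and 96.9 CPM in KO, against 54.4, 57 and 58.7 CPM in wt, without overlap (0.42 ± 0.15, adjusted p = 0.0344). That call was lost without any wt library or KO 3 (0.062 to 0.33) and under the endothelial scaling (0.44). Slc6a9 (GlyT1), a glycine carrier, had 40.8, 20.1 and 54.1 CPM in KO, against 15.2, 24.7 and 20.1 CPM in wt, with KO 2 within the wt range. Its call (0.93 ± 0.30, adjusted p = 0.0232) was lost without wt 1, wt 3, KO 1 or KO 3 (0.06 to 0.18) and under the endothelial scaling (0.084). Slc6a11 (GAT3), a GABA carrier of astrocytes, had 113, 73.3 and 130 CPM in KO, against 54.8, 93.2 and 75.5 CPM in wt, and was not called (0.50 ± 0.25, adjusted p = 0.141). Another 7 Slc6 genes were not called (Slc6a3, Slc6a5, Slc6a7, Slc6a12, Slc6a13, Slc6a15 and Slc6a20a, the last with a close paralog that may share its reads), and had log2 fold changes of -0.67 to 1.14 and overlapping libraries.

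Slc6a17, a neutral amino acid carrier of synaptic vesicles, had 24.6, 25.1 and 52.6 CPM in KO, against 57.3, 53.2 and 54.3 CPM in wt. KO 3 came close to the wt range (log2 fold change -0.68 ± 0.23, adjusted p = 0.0312), and the call was lost without any wt library, KO 1 or KO 2 (0.058 to 0.14). Neuron markers summed to 304, 231 and 510 CPM in KO and 254, 266 and 295 CPM in wt, with KO 3 highest and none of 10 called, and their part in the values of KO 3 was not tested. Slc6a4, the serotonin carrier, rested on 4, 13 and 22 reads in KO and 6, 2 and 3 reads in wt. It was called higher (1.77 ± 0.67, adjusted p = 0.0462), but the libraries overlapped and the call was lost without wt 2, wt 3, KO 2 or KO 3 (0.066 to 0.23) and under the endothelial scaling (0.075).

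The remaining families held few carriers. Slc36a4, a proton-coupled family member with high affinity for proline and tryptophan, had 73.2, 81.7 and 83.2 CPM in KO, against 45, 46.5 and 45.6 CPM in wt. The groups were apart (log2 fold change 0.80 ± 0.12, adjusted p = 2.99e-05). Slc36a1 (PAT1), the lysosomal exporter of small amino acids, had 21.9, 44.4 and 78.8 CPM in KO, against 59.1, 29.3 and 66.8 CPM in wt, and was not called. In the Slc43 family, Slc43a1 (LAT3) had 3.2, 4.07 and 2.01 CPM in KO, against 5.56, 6.57 and 4.71 CPM in wt, all lower (-0.87 ± 0.28, adjusted p = 0.0207, lost without wt 2 or KO 3 at 0.092 and 0.11). Slc43a3, a carrier of purine bases rather than amino acids, had 64, 57.6 and 44.3 CPM in KO, against 86.3, 79.3 and 69.3 CPM in wt, also all lower (-0.50 ± 0.16, adjusted p = 0.0221). It lost its call without wt 1, wt 2 or KO 3 (0.058 to 0.1). Slc43a2 (LAT4), a carrier of branched chain amino acids, had 247, 283 and 211 CPM in KO, against 280, 273 and 273 CPM in wt, with overlap (-0.16, adjusted p = 0.278).

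**Figure D3:**
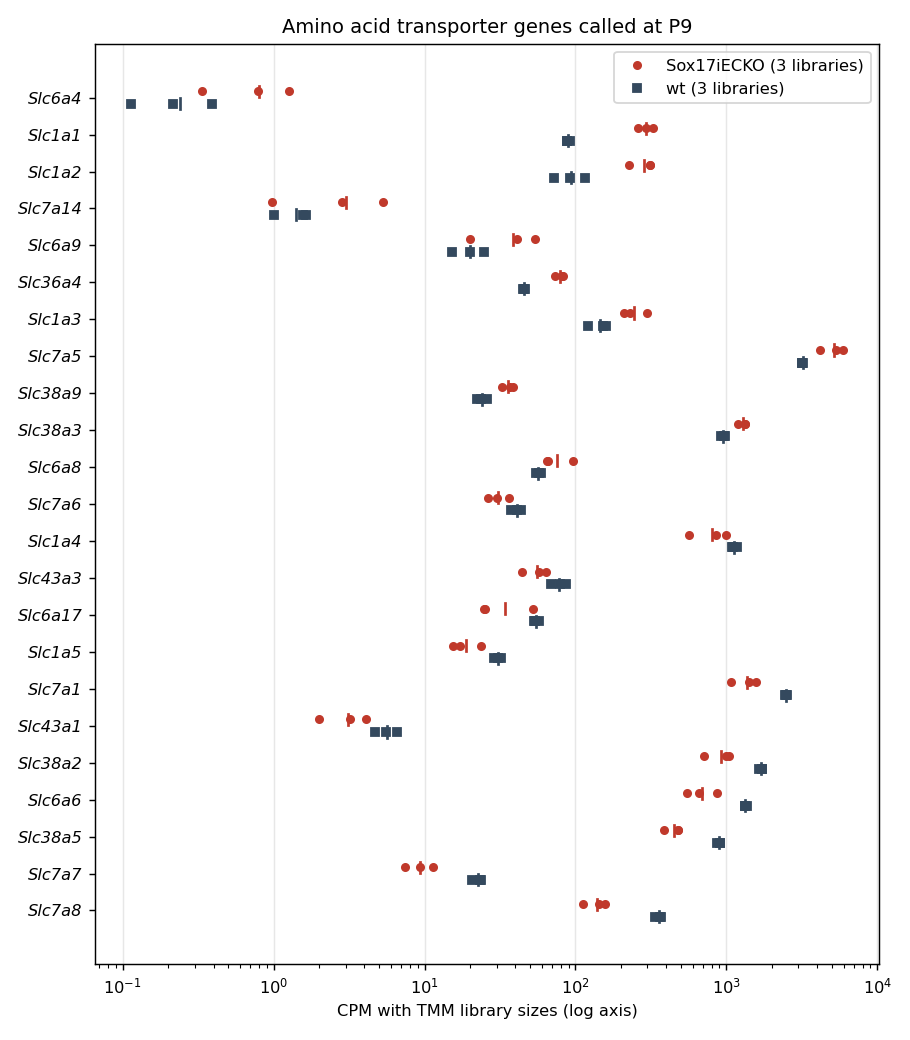
Levels at P9 (CPM, log axis) of 23 of the 24 called members in KO (circles) and wt (squares), with 1 point per library and ticks at the means. Slc1a1, Slc1a2 and Slc7a5 have KO points above all wt points, while Slc7a8, Slc7a7, Slc38a5, Slc38a2, Slc7a1 and Slc6a6 have KO points below them.

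Of the 24 calls at P9, 12 held in every alternative: Slc1a1, Slc1a2, Slc7a5, Slc36a4 and Slc38a9 higher, and Slc7a8, Slc7a7, Slc38a5, Slc38a2, Slc7a1, Slc6a6 and Slc1a5 lower. Slc7a6 and Slc1a4 were also lost with DESeq2 size factors, the DESeq2 test and the compared libraries alone. Slc6a17 was lost with DESeq2 size factors and the compared libraries alone, and Slc6a9 and Slc6a4 with limma-trend and the compared libraries alone. Slc6a8 and Slc43a1 were lost with the compared libraries alone, and Slc7a14 with those, limma-trend, the replicate block and the endothelial scaling. The members' summed TPM was 10700 ± 440 in KO and 11000 ± 209 in wt at P9 (SD, n = 3 each), so the calls went in both directions around a like sum. By family, Slc7 held 45.8 ± 3.65% of it in KO and 35.9 ± 0.143% in wt, and Slc38 held 19.9 ± 2.5% in KO and 29.2 ± 0.496% in wt. Markers of cells around the vessel moved at P9 as well. Pericyte markers summed to 803 to 1970 CPM in KO and 3040 to 4130 CPM in wt with 7 of 10 called lower, smooth muscle markers to 35.4 to 76.6 CPM in KO and 146 to 202 CPM in wt with 4 of 5 lower, and fibroblast markers to 404 to 589 CPM in KO and 742 to 1000 CPM in wt with 7 lower and 1 higher of 10. Endothelial markers summed to 19900 to 23700 CPM in KO and 17300 to 17900 CPM in wt, with 5 higher and 2 lower of 12. The part of these cell types in the carriers' values was not tested.

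At the other stages no member was called in the fit to all 24 libraries. At E15.5 edgeR called 0 of 49 members (0.548% of all genes were called), 4 had an unadjusted p under 0.05, and limma and DESeq2 called 0. At P5 edgeR called 0 (0.53% of all genes), with 7 under 0.05 unadjusted, and limma and DESeq2 called 0. In adults edgeR called 0 (0.0874% of all genes, 0.0291% higher and 0.0583% lower), with 3 under 0.05 unadjusted, limma called 0 and DESeq2 called 1, Slc7a1. The member differences were small, with a median size of 0.11, 0.14 and 0.14 (log2) at E15.5, P5 and in adults, where all genes had 0.12, 0.15 and 0.11.

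Slc7a1 was the member that came nearest in adults. It had 265, 303 and 222 CPM in adult KO libraries, against 416, 407 and 367 CPM in wt libraries, with no overlap (log2 fold change -0.59, unadjusted p = 0.00037, adjusted p = 0.199). It was called in adults with the DESeq2 test (0.019), with the compared libraries alone (0.029) and without the low-count filter (0.0015). At P5 it had 1910, 2400 and 2280 CPM in KO, against 2800, 3090 and 2520 CPM in wt, and at E15.5 775, 656 and 594 CPM in KO, against 783, 935 and 789 CPM in wt. Its KO libraries were thus below all wt libraries at each of the 4 stages, although in the fit to all libraries only the P9 difference was called. Slc7a8 had 93.9, 83.3 and 67.6 CPM in KO, against 95.5, 140 and 114 CPM in wt at E15.5, and 233, 307 and 295 CPM in KO, against 410, 465 and 353 CPM in wt at P5, in both cases below and not called (adjusted p = 0.450 and 0.253). Without the low-count filter Slc7a8 was called lower at both stages (0.0052 at E15.5 and 0.00084 at P5), and with the compared libraries alone at P5 (0.033). In adults it had 29.2, 17.4 and 20.2 CPM in KO, against 25.4, 19 and 19.5 CPM in wt, which overlapped. Slc6a4 had the lowest adjusted p at E15.5 (0.282), with 1.88, 1.69 and 1.03 CPM in KO, against 4.25, 5.08 and 3.83 CPM in wt, and was called without the low-count filter (0.043). Slc6a17 had the lowest at P5, with 46.6, 38.9 and 45.9 CPM in KO, against 80.4, 75.8 and 72.6 CPM in wt, and no overlap (-0.80, adjusted p = 0.177). It was called lower there with the compared libraries alone (0.00058) and without the low-count filter (5.8e-07).

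The KO difference changed with stage. A test of the stage by genotype interaction called 12 members, 24.5% of them, against 13.5% of all genes. Between P9 and P5 the KO difference changed in 12 members, 8 upward (7.27% of all genes) and 4 downward (8.44%), with 15.7% of all genes called. Between P9 and adult it changed in 11, 6 upward (6.5% of all genes) and 5 downward (6.72%), with 13.2% called. These comparisons share the P9 libraries. Between P5 and P9 the time since tamoxifen also differed and cannot be told apart from stage. Sox17 averaged 23.4 CPM in KO and 333 CPM in wt at P9, and 52.7 CPM in KO and 297 CPM in wt in adults. The part of the remaining Sox17 in these changes was not tested. With the endothelial scaling, all genes shifted by a median of -0.19 and -0.28, and the splits became 3 upward and 8 downward, and 4 upward and 10 downward. Of all 17159 genes, 2912 and 2975 were then called.

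Slc1a1 changed most by adjusted p. It averaged 44.6 ± 9.55 CPM in KO and 44.1 ± 7.23 CPM in wt at E15.5, 70.2 ± 4.27 CPM in KO and 60.9 ± 8.31 CPM in wt at P5, 293 ± 31.8 CPM in KO and 89.8 ± 2.46 CPM in wt at P9, and 209 ± 22.8 CPM in KO and 212 ± 16.3 CPM in wt in adults (SD, n = 3 each). At P5 the KO libraries, at 75.1, 67.6 and 67.8 CPM, also lay just above the wt libraries, at 66, 65.4 and 51.3 CPM, but only the P9 difference was called. The KO difference at P9 exceeded that at P5 by 1.50 ± 0.19 (adjusted p = 7.8e-06) and that in adults by 1.72 ± 0.19 (adjusted p = 1.36e-06). The P9 KO level was above the adult levels of both genotypes. Slc1a2 had 76.2 ± 12.1 CPM in KO and 70.5 ± 0.945 CPM in wt at E15.5, 62.7 ± 3.42 CPM in KO and 59.2 ± 13 CPM in wt at P5, 283 ± 50.7 CPM in KO and 93.6 ± 21.9 CPM in wt at P9, and 651 ± 38.1 CPM in KO and 542 ± 103 CPM in wt in adults. Its P9 difference exceeded the P5 one by 1.51 ± 0.25 (adjusted p = 0.000144) and the adult one by 1.33 ± 0.24 (adjusted p = 0.000489). Unlike Slc1a1, Slc1a2 was higher still in the adult libraries of both genotypes.

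Slc38a5 had 406 ± 69.4 CPM in KO and 363 ± 60.8 CPM in wt at E15.5, 1060 ± 109 CPM in KO and 1020 ± 46.0 CPM in wt at P5, 447 ± 51.4 CPM in KO and 892 ± 26.2 CPM in wt at P9, and 222 ± 27.1 CPM in KO and 175 ± 21.6 CPM in wt in adults. The P9 difference was below the P5 one by -1.04 ± 0.19 (adjusted p = 0.000672) and below the adult one by -1.34 ± 0.20 (adjusted p = 4.48e-05). The P9 KO level lay between the P9 and adult levels of wt. Slc7a8 showed a P9 difference below the P5 one by -0.81 ± 0.24 (adjusted p = 0.0265) and below the adult one by -1.44 ± 0.26 (adjusted p = 0.00045), and the change against P5 was lost without P5 KO 2, KO 3, wt 1 or wt 3 or P9 KO 3, wt 1 or wt 2 (0.052 to 0.076). Slc7a5 had 2950 ± 126 CPM in KO and 2970 ± 533 CPM in wt at P5, and 865 ± 170 CPM in KO and 950 ± 32.6 CPM in wt in adults, where the genotypes overlapped. Its P9 difference exceeded the P5 one by 0.70 ± 0.23 (adjusted p = 0.0380) and the adult one by 0.82 ± 0.23 (adjusted p = 0.0168). The change against P5 was lost without any P5 or P9 library but P5 wt 3 and P9 KO 3 (0.053 to 0.1) and under the endothelial scaling (0.081), and that against adults without adult KO 1 (0.05). The largest mean level of Slc7a5 in any group was thus that of P9 KO, 5150 ± 884 CPM.

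Slc6a6 behaved differently between P9 and adults. It had 690 ± 158 CPM in KO and 1330 ± 26.1 CPM in wt at P9, and 2040 ± 126 CPM in KO and 1820 ± 120 CPM in wt in adults, a change of the KO difference of -1.11 ± 0.23 (adjusted p = 0.00182). At P5 it had 818, 1320 and 1340 CPM in KO, against 1420, 1710 and 1490 CPM in wt, all lower and not called, and its change between P9 and P5 was not called. Slc36a4 had 52.2 ± 2.12 CPM in KO and 51.7 ± 1.59 CPM in wt at P5, 79.4 ± 5.39 CPM in KO and 45.7 ± 0.746 CPM in wt at P9, and 37.1 ± 1.97 CPM in KO and 37.7 ± 1.22 CPM in wt in adults, apart at P9 alone. Slc38a9 and Slc38a2 also changed against both P5 and adult, Slc38a9 upward by 0.61 ± 0.14 and 0.52 ± 0.14 and Slc38a2 downward by -0.70 ± 0.20 and -0.88 ± 0.20. Without P5 KO 1 the Slc38a2 change against P5 was lost (0.067), and under the endothelial scaling the Slc36a4 (0.076 and 0.095) and Slc38a9 (0.14 and 0.41) changes were lost. For Slc38a9 the P9 KO mean, 35.9 ± 3.0 CPM, was close to the adult means of 36.9 ± 2.04 CPM in KO and 35.1 ± 2.70 CPM in wt.

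**Figure D4:**
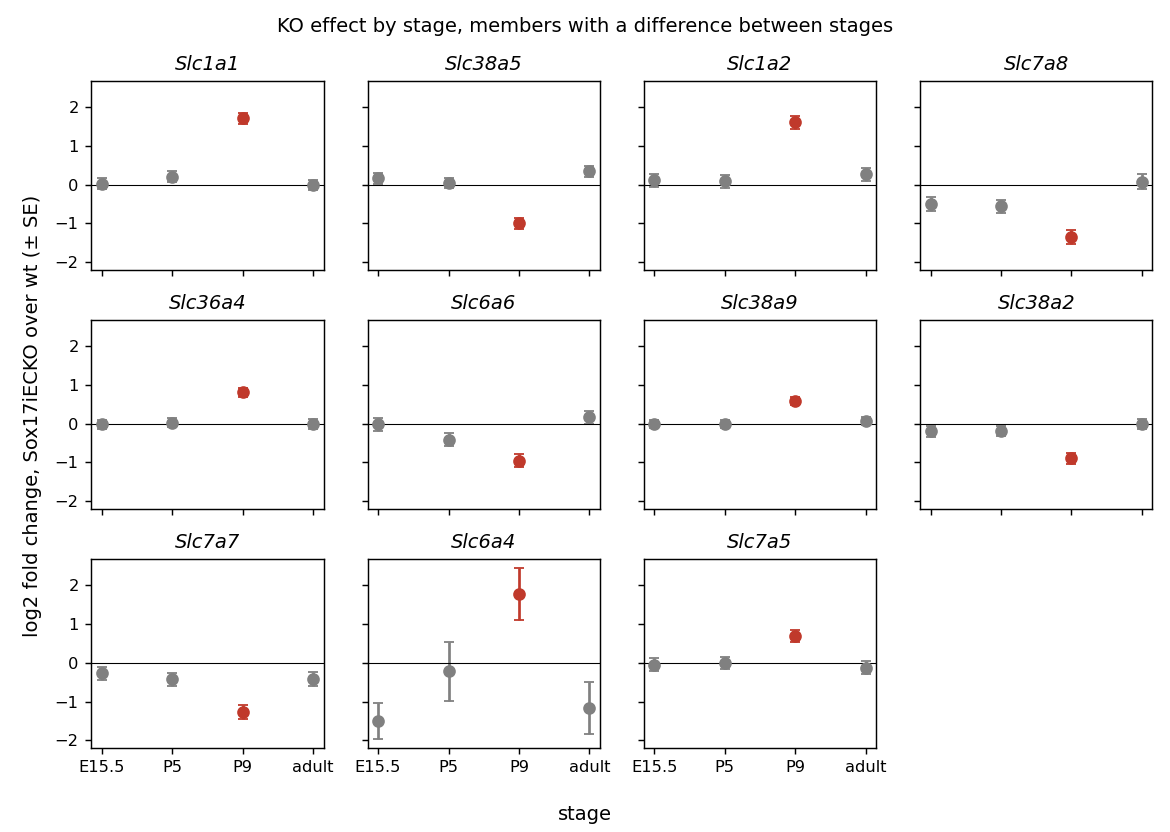
The log2 fold change of KO over wt (± SE) at each stage, in 1 panel each for 11 of the 12 members whose KO difference changed with stage; red points were called and grey ones were not. Called points appear at P9 alone, and they are above 0 for Slc1a1, Slc1a2, Slc36a4, Slc38a9, Slc6a4 and Slc7a5 and below 0 for Slc38a5, Slc7a8, Slc6a6, Slc38a2 and Slc7a7.

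Genes that sense, use or move amino acids in other ways were compared from 7 lists, described by counts beside the 28% of all genes called at P9 and the median of 0.02 over all genes. Of 31 genes of the amino acid response and serine synthesis (ATF4 targets and their regulators), 11 were higher and 8 lower in KO at P9, with a median log2 fold change of 0.07. Eif2ak4 (GCN2), the kinase that senses uncharged transfer RNA, stood at 164 ± 13.5 CPM in KO and 57.7 ± 1.37 CPM in wt (1.51 ± 0.08, adjusted p = 6.91e-12). Ddit4, an inhibitor of mTORC1, stood at 250 ± 66 CPM in KO and 51.1 ± 8.64 CPM in wt (2.29 ± 0.20, adjusted p = 1.05e-08), and Trib3, a pseudokinase of the same response, at 15.2 ± 7.89 CPM in KO and 2.95 ± 0.168 CPM in wt (2.36 ± 0.33, adjusted p = 9.03e-06). Aldh18a1, an enzyme of proline synthesis, was lower, at 28.7 ± 5.67 CPM in KO and 50.1 ± 5.56 CPM in wt. These named genes did not move in 1 direction, and the amino acid carriers of the response, Slc7a5, Slc38a2 and Slc7a11, did not either. At P5 Sesn2, a leucine sensor, was the 1 called gene of the 7 lists (41.3 ± 6.15 CPM in KO, 20.7 ± 4.94 CPM in wt, adjusted p = 0.0079), and none was called at E15.5 or in adults.

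Of 23 mTORC1 sensing genes 4 were higher and 2 lower at P9 (median 0.17), among them Sesn1 (0.94 ± 0.10), which inhibits mTORC1, Flcn (0.87 ± 0.12) and Tsc1 (0.65 ± 0.13), and Fnip2, the partner of Flcn, was lower (-0.70 ± 0.16). Of 10 genes of arginine and nitric oxide use 1 was higher and 2 lower (median 0.07). Ass1, which makes arginine from citrulline, was at 3.71 ± 0.849 CPM in KO and 8.86 ± 0.558 CPM in wt (-1.25 ± 0.25, adjusted p = 0.00046). Of 13 glutamate and glutamine enzymes 2 were higher and 2 lower (median 0.34), and Glul, which makes glutamine from glutamate, was at 1090 ± 177 CPM in KO and 860 ± 35.3 CPM in wt (0.34 ± 0.11, adjusted p = 0.0234). Of 11 branched chain breakdown genes 1 was higher and 2 lower (median -0.10), with Bcat1 at 1.06 ± 0.22 and Bckdhb at -0.74 ± 0.15. Of 9 glutathione genes 2 were higher and 0 lower (median 0.05), Gclm (0.65 ± 0.12), a subunit of the enzyme that starts glutathione synthesis, and Nfe2l2 (0.40 ± 0.14), its regulator. Of 16 amino acid carriers of other families 5 were higher and 2 lower (median 0.39), led by Slc25a18, a mitochondrial glutamate carrier (1.04 ± 0.22), and Ctns, the lysosomal cystine exporter (0.41 ± 0.11).

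In wt libraries the carriers were set against stage. Between P5 and E15.5, 37 of 49 members were called, 75.5% of members where 66.6% of all genes were called, 21 higher and 16 lower at P5 (36.2% and 30.4% of all genes). In CPM, the carriers of the barrier were higher at P5. Slc7a1 was at 2810 ± 286 CPM at P5 and 836 ± 85.6 CPM at E15.5 (log2 fold change 1.75 ± 0.14), and Slc7a5 at 2970 ± 533 CPM at P5 and 1070 ± 144 CPM at E15.5 (1.47 ± 0.16). Slc38a5 was at 1020 ± 46.0 CPM at P5 and 363 ± 60.8 CPM at E15.5 (1.50 ± 0.14), Slc6a6 at 1540 ± 150 CPM at P5 and 463 ± 81.2 CPM at E15.5 (1.73 ± 0.17), and Slc3a2 at 1440 ± 101 CPM at P5 and 670 ± 69.8 CPM at E15.5 (1.1 ± 0.11), and all 5 had adjusted p of 4.34e-08 or less. These directions depended on the scaling. Endothelial marker genes summed to 16200 to 17800 CPM in wt at P5 and 4510 to 5380 CPM at E15.5. When libraries were scaled to them all genes shifted by a median of -1.60, and 14698 of all 17159 genes were called. Of the members 1 was then higher (Slc7a2, 0.54) and 36 were lower. Slc7a5 (-0.24), Slc38a5 (-0.19) and Slc3a2 (-0.60) turned direction while Slc7a1 and Slc6a6 (0.04 each) were not called. The falls at P5 stayed falls under the endothelial scaling, which is no check of them, because that scaling moved genes downward. Among the falls were Slc38a1, a neuronal glutamine carrier (62.6 ± 4.93 CPM at P5 and 221 ± 50.0 CPM at E15.5, -1.82 ± 0.16), Slc7a4 (-2.69 ± 0.26), Slc6a15 (-1.25 ± 0.19) and Slc7a6 (-0.86 ± 0.14). Neuron markers summed to 267 to 446 CPM at P5 and 1810 to 2290 CPM at E15.5, and their part in these falls was not tested.

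Between P9 and P5 in wt, 5 members were called (10.2%, where 5.12% of all genes were), 2 higher, Slc1a1 and Slc1a2 (2.67% of all genes), and 3 lower, Slc6a15, Slc38a4 and Slc1a6 (2.45%). Slc1a1 was at 89.8 ± 2.46 CPM at P9 and 60.9 ± 8.31 CPM at P5 (0.56 ± 0.14, adjusted p = 0.0181), and Slc1a2 at 93.6 ± 21.9 CPM at P9 and 59.2 ± 13 CPM at P5 (0.66 ± 0.17, adjusted p = 0.0276). None of the 5 calls held in every alternative, and without P9 wt 2 all were lost, with adjusted p of 0.058 to 0.19. Without each other library of these groups 1 to 4 were called.

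Between adult and P9 in wt, 38 members were called (77.6%, where 61.1% of all genes were), 18 higher and 20 lower in adults (30.9% and 30.3% of all genes). With the endothelial scaling, which shifted all genes by a median of 0.44, 21 were higher and 13 lower, where 10577 of all 17159 genes were called. Slc7a8 was at 21.3 ± 3.53 CPM in adults and 356 ± 14.7 CPM at P9 (-4.06 ± 0.20, adjusted p = 5.38e-14), and Slc1a4 at 92.9 ± 20.5 CPM in adults and 1120 ± 41.9 CPM at P9 (-3.59 ± 0.19). Slc43a3 was at 6.35 ± 1.71 CPM in adults and 78.3 ± 8.54 CPM at P9 (-3.63 ± 0.19), and Slc7a1 at 397 ± 26.4 CPM in adults and 2480 ± 34.2 CPM at P9 (-2.64 ± 0.15). Slc38a5 (-2.35 ± 0.14), Slc38a2 (-2.03 ± 0.15), Slc7a5 (-1.75 ± 0.16) and Slc3a2 (-1.42 ± 0.11) followed, and these 8 members were called lower in adults under both scalings. Slc38a3 was lower by a smaller amount (-0.34 ± 0.13, adjusted p = 0.0270) and turned to 0.09 under the endothelial scaling, and its call was lost without P9 wt 2, P9 wt 3, adult wt 1 or adult wt 2 (0.063 to 0.081). Slc6a6 was higher, at 1820 ± 120 CPM in adults and 1330 ± 26.1 CPM at P9 (0.45 ± 0.16, adjusted p = 0.0204), a call lost without P9 wt 1, P9 wt 2 or adult wt 1 (0.051 to 0.068).

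The carriers that rose between P9 and adult included carriers of glycine, D-serine, glutamate and GABA. Slc6a9 was at 317 ± 26.4 CPM in adults and 20.0 ± 4.75 CPM at P9 (3.98 ± 0.32), and Slc7a10 at 152 ± 28.9 CPM in adults and 19.6 ± 5.02 CPM at P9 (2.96 ± 0.29). Slc1a2 was at 542 ± 103 CPM in adults and 93.6 ± 21.9 CPM at P9 (2.53 ± 0.18), and Slc6a11 at 393 ± 104 CPM in adults and 74.5 ± 19.2 CPM at P9 (2.40 ± 0.26). Slc7a10 took 18.4 ± 2.85% of light chain TPM in adult wt libraries and 0.812 ± 0.208% at P9. Astrocyte markers were at 2480, 2850 and 3730 CPM in the adult wt libraries and 1150, 1120 and 1140 CPM at P9, with 8 higher and 1 lower of 10, and all 10 oligodendrocyte markers were higher. All 4 of these carriers were highest in the same adult wt library, wt 3, as the astrocyte markers. The oligodendrocyte markers (21300, 22900 and 25700 CPM) were highest there too, and so was Slc1a4 (74.1, 89.8 and 115 CPM), which was lower in adults. Slc6a6 and Slc7a1 were highest in wt 1. The part of astrocytes and oligodendrocytes in the rises was not tested.

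Between adult and E15.5 in wt, 43 members were called (87.8%, where 69.6% of all genes were), 17 higher and 26 lower in adults (35.2% and 34.3% of all genes). With the endothelial scaling, which shifted all genes by a median of -1.35, 9 were higher and 35 lower, where 14456 of all 17159 genes were called. Slc7a5, at 950 ± 32.6 CPM in adults and 1070 ± 144 CPM at E15.5 (-0.18 ± 0.16, adjusted p = 0.333), and Slc3a2, at 570 ± 29.4 CPM in adults and 670 ± 69.8 CPM at E15.5 (-0.23 ± 0.11, adjusted p = 0.0555), were not called. In CPM both had their highest wt levels at P5 and P9. With the endothelial scaling P5 was not above E15.5, at -0.24 for Slc7a5 (not called) and -0.60 for Slc3a2 (called lower). Under the endothelial scaling both were called lower in adults, Slc7a5 by -1.53 (adjusted p = 1.6e-10) and Slc3a2 by -1.59 (adjusted p = 3e-13). Slc3a2 was also called lower with DESeq2 size factors (0.019), the DESeq2 test (0.0075), limma-trend (0.044), no low-count filter (0.033) and without E15.5 wt 1 (0.02). Slc6a6 was higher in adults (1.98 ± 0.17), as were Slc1a1 (2.26 ± 0.14) and Slc7a11 (3.10 ± 0.26), and Slc1a4 (-2.49 ± 0.18), Slc7a8 (-2.45 ± 0.19) and Slc6a15 (-2.92 ± 0.21) were lower.

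**Figure D5:**
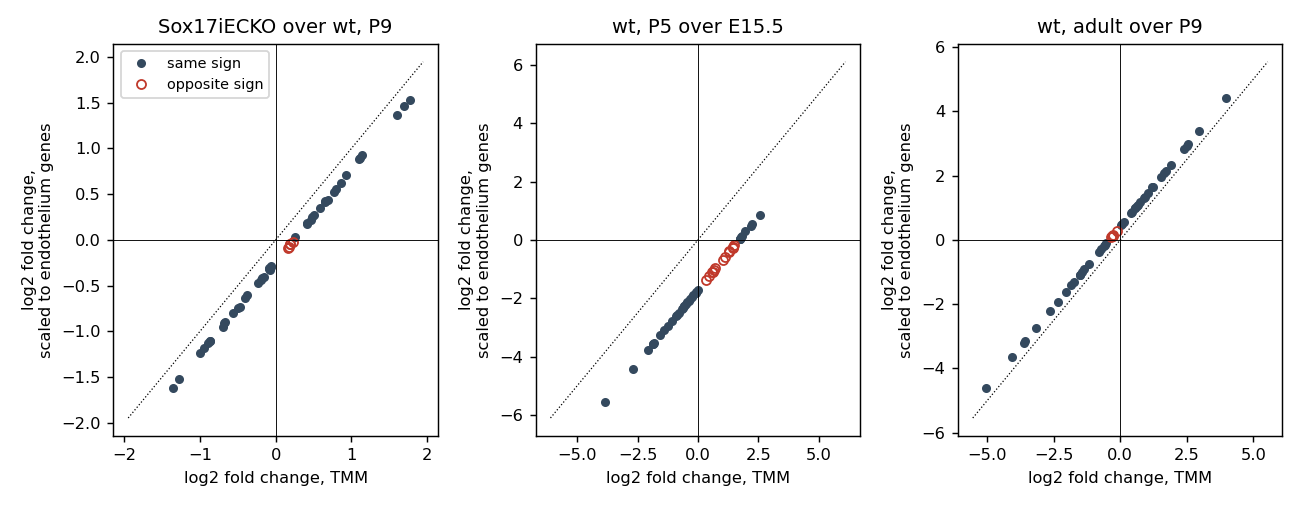
Log2 fold changes of the members with counts scaled by TMM, the trimmed mean of M values (horizontal axis), and with counts scaled to endothelial marker genes (vertical axis), in 3 panels for KO over wt at P9, wt P5 over E15.5 and wt adult over P9. Open red points have opposite signs under the 2 scalings; they are many for P5 over E15.5, where all genes shifted by a median of -1.60, and none of the 24 members called at P9 is among them.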

How the data were processed

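Polyadenylated RNA of 24 libraries, 3 per genotype and stage, was sequenced strand-specifically on an Ion Proton instrument, per the labels' protocols. Per the submitters' processing notes, the tools included STAR 2.5.3a, SAMtools 1.5, Trim Galore 0.4.1 and FastQC, and the genome build was mm10; the annotation release is not given in the sources used here. The deposited tables hold raw counts on 1 strand per gene, the authors' FPKM and the authors' TPM, and recomputing both from counts and gene lengths gave the deposited values. Depth, which sets the counting precision, was 12301779 to 19830600 counts per library. Levels between genes used the authors' TPM, and tests used the counts.

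The tests covered the 17159 genes whose group mean reached 10 counts somewhere among the 8 groups, with TMM factors of 0.861 to 1.14. The edgeR 4.0.16 quasi-likelihood test (R 4.3.3) was fitted to all 24 libraries with a mean per group, 16 residual degrees of freedom and a prior count of 2, two-sided, with Benjamini-Hochberg adjustment over all genes tested and a threshold of 0.05. The pipeline was tested on simulated data. Alternatives were DESeq2 1.42.0 size factors and test, limma-trend (3.58.1), no low-count filter, endothelial marker scaling, the compared libraries alone, a replicate block and leaving out libraries. Named genes were Slc7a5, Slc3a2, Slc7a1, Slc38a5, the 10 highest in wt TPM, the top of each family, up to 8 called per direction and comparison, and up to 4 per pathway list; other members named were chosen after their values were seen. A few items that this rule picks are not reported here. The members and the gene lists were chosen with earlier results of these data known.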

Additional observations from a re-analysis of the deposited data

Results flagged for a closer look

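The KO difference changed between the 4 stages in 12 members by the interaction test of edgeR with Benjamini-Hochberg adjustment over all genes. The adjusted p was 1.06e-06 for Slc1a1, 9.96e-05 for Slc38a5, 0.000159 for Slc1a2, 0.00262 for Slc7a8, 0.00264 for Slc36a4, 0.00558 for Slc6a6, 0.00754 for Slc38a9, 0.0142 for Slc38a2, 0.0236 for Slc7a7, 0.0303 for Slc6a4, and 0.0398 for Slc7a5. In each of these the P9 contrast was the called one. Of the 12, 6 were called in every alternative and 8 whichever library was left out. Slc7a5 was lost without several libraries (up to 0.13) and under the endothelial scaling (0.093), Slc7a7 without P9 wt 1, wt 3, KO 1 or KO 3 (0.056 to 0.081), and Slc6a4 at 0.051 to 0.13. The endothelial scaling also ended the calls of Slc36a4 (0.15) and Slc38a9 (0.34), and Slc38a9 was lost without the low-count filter too (0.096).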

How the results depend on the processing

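At P9, 12 of the 24 calls held in every alternative and 13 whichever library was left out, and no called direction turned. Without the low-count filter the members called were 2 at E15.5, 2 at P5, 1 in adults, 19 for the interaction, 19 for P9 minus P5 and 11 for wt P9 over P5. Of all 30432 genes then tested, 212, 322, 69, 3119, 3074 and 1579 were called, in that order. Fitting only the libraries compared gave 2 at P5, 15 at P9 (7 higher and 8 lower), 1 in adults and 9 for wt P9 over P5. Of all 17159 genes, 205, 3643, 40 and 2063 were called there. The DESeq2 test gave 1 in adults (36 of 16489 genes) and the endothelial scaling 2 for wt P9 over P5 (503 of 17159 genes). The cause of these shifts was not tested.

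Leaving out 1 library gave 0 to 0 members called at E15.5, at P5 and in adults, 16 to 24 at P9, 8 to 14 for the interaction, 7 to 15 for P9 minus P5 (7 without P5 KO 3 and without P9 wt 1), 8 to 14 for P9 minus adult, 36 to 39 for wt P5 over E15.5, 0 to 4 for wt P9 over P5, 33 to 36 for wt adult over P9 and 40 to 42 for wt adult over E15.5. For wt P9 over P5 the counts were 4, 3 and 1 without P5 wt 1, 2 and 3, and 2, 0 and 2 without P9 wt 1, 2 and 3. Over all 17159 genes, the calls ranged from 3650 to 5100 at P9 and from 305 to 546 for wt P9 over P5. Where 2 libraries of a group remained, the fit pooled the spread over all groups. Leaving out both E15.5 libraries numbered 3 gave 13 for the interaction, 39 for wt P5 over E15.5 and 42 for wt adult over E15.5.

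The endothelial scaling turned called wt values. Over all alternatives, 12 members called for P5 over E15.5 turned direction somewhere, as did 2 for adult over P9 and 7 for adult over E15.5. Not all of them are listed here. Over E15.5, P5 turned to -1.25 for Slc1a1, -0.27 for Slc1a4, -1.10 for Slc1a5, -1.09 for Slc38a2, -0.26 for Slc38a3, -0.19 for Slc38a5, -0.60 for Slc3a2, -0.69 for Slc43a2, -0.40 for Slc43a3, -0.38 for Slc7a10 and -0.24 for Slc7a5. Slc38a3 turned to 0.09 for adult over P9, and adult over E15.5 turned to -0.21 for Slc36a1, -0.10 for Slc38a3, -1.02 for Slc38a6 and -1.09 for Slc43a2.

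Same-numbered libraries of the genotypes had deviations correlated at 0.06, 0.37 and 0.49 at E15.5 and at -0.08 to 0.09 elsewhere. Libraries numbered 2 and 3 thus varied together across genotypes at E15.5. The labels give no pairing by number, and the main fit used none. A fit with the replicate number as a block called 24 members at P9, 12 for the interaction, 12 for P9 minus P5, 12 for P9 minus adult, 37, 4, 39 and 43 for the wt comparisons in the order above, and 0 at the other stages. At P9 the block lost Slc7a14 (0.13) and gained Slc6a7 (0.048). Depth limits members with few reads, such as Slc6a4 and Slc3a1.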
